A study of Sus scrofa with 5 samples.

Results

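The vascular adhesion molecules VCAM1, ICAM1, SELE and SELP and the NF-kB genes NFKB1, NFKB2, NFKBIA, NFKBIZ, TNFAIP3 and BIRC3 were followed through single nuclei of the pig abdominal aorta. These 10 genes were set by name and looked up by symbol among the 35670 features of the count matrices. The symbol matched for 9 of them, and SELE was not analysed here. The animals were castrated male Ossabaw pigs, a feral island breed kept as a model of diet-induced metabolic disease, aged 12 months when the diets began. The obese group of 3 pigs ate a high-fat, high-fructose diet, and the control group of 2 pigs ate chow. One label gives the feeding as 6 months and another as 9 months. Each pig gave 1 library of sorted nuclei from a frozen vessel piece of about 50 mm, read with 10x Genomics 3' chemistry. The series title calls the vessels atherosclerotic and healthy, and no measure of lesions was used.

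Activated endothelium displays selectins, which let leukocytes roll, and then VCAM1 and ICAM1, which bind leukocyte integrins and hold the cells in place before they cross the vessel wall. Their genes are textbook targets of NF-kB, a family of dimeric transcription factors that cytokine and Toll-like receptors release from inhibitor proteins. The same factors switch on regulators of their own response. Of these, NFKBIA encodes the inhibitor IkB-alpha and TNFAIP3 the ubiquitin-editing enzyme A20, which are brakes. BIRC3 encodes the ubiquitin ligase cIAP2, and NFKBIZ the nuclear protein IkB-zeta, which tunes the response of secondary targets.

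In the RefSeq annotation of Sscrofa11.1, SELE and SELP lie side by side on the plus strand at chr4:81289061-81299657 and chr4:81376804-81401240, and VCAM1 lies on the same chromosome on the minus strand at chr4:117496914-117511211. ICAM1 is at chr2:69097136-69107722 on the plus strand. The subunit genes NFKB1 and NFKB2 are at chr8:118391010-118478927 (minus) and chr14:113406412-113414177 (plus). The regulators NFKBIA, NFKBIZ, TNFAIP3 and BIRC3 are at chr7:64508119-64510754 (plus), chr13:157261419-157273119 (minus), chr1:26474158-26489771 (minus) and chr9:33003570-33020252 (plus).

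The kappa-B motif, the site that NF-kB dimers recognise, was searched on both strands from 250 bases before to 50 bases after the start of 1 RefSeq transcript per gene, a curated one where there was one. For NFKBIZ, TNFAIP3 and SELE, none of which held a match, that start lies inside the annotated gene, at 157272563, 26485837 and 81289173. For NFKB1, NFKBIA, NFKBIZ and TNFAIP3 the transcript used begins with the letters of a start codon, atg. What lies before it need not be the promoter, so NFKB1, NFKBIZ and TNFAIP3 cannot be read as lacking a promoter match. VCAM1, ICAM1, NFKB2 and NFKBIA held a match, 4 of the 10 genes, beside 1379 of 19556 such windows over all annotated genes, 7.05%. A set of 4 stretches is shown, 3 with a match and that of NFKBIZ, the member called in the most sets of nuclei, which held none in the window. Those with a match lie upstream of VCAM1 at chr4:117511212-117511461 (minus strand), of ICAM1 at chr2:69096886-69097135 (plus) and of NFKBIA at chr7:64507869-64508118 (plus). That of NFKBIZ, at chr13:157272564-157272813 (minus), lies before the start used but inside the annotated gene, which those of the other 3 do not. The start used is a start codon for NFKBIA as well as for NFKBIZ. Each reads 5′ to 3′ toward the start used, from RefSeq Sscrofa11.1, with the kappa-B match in capitals.
VCAM1: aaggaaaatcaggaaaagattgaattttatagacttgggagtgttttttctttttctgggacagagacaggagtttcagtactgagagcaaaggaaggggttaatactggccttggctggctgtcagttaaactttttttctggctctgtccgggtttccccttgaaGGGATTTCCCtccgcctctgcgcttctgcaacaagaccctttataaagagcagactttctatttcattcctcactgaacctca
ICAM1: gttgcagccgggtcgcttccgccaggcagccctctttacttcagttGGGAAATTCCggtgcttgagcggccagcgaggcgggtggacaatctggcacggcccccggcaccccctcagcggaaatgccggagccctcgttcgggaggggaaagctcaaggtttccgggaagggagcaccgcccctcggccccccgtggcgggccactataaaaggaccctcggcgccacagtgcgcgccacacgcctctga
NFKBIA: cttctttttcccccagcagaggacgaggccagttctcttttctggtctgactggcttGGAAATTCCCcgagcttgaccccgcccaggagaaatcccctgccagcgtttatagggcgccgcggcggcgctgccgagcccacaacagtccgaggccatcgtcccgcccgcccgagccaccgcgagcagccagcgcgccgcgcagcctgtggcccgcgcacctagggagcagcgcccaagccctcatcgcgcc
NFKBIZ: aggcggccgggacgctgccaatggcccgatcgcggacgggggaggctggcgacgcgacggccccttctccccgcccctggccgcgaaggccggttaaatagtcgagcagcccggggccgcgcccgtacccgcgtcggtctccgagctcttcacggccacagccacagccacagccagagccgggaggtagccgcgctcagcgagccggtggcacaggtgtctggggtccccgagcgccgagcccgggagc

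The match began 83 bases before the start of VCAM1, where it matches on both strands, and 204 bases before that of ICAM1. For NFKBIA it began, on the opposite strand, 193 bases before the start codon at which the transcript used begins. In NFKB2 overlapping matches began 6 and 5 bases before the start, and a further match began after it, at base 23. A match describes letters and does not show binding.

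The libraries held 21516249 to 47724416 UMIs (unique molecules counted) over 5698 to 12319 barcodes. After removal of 77 barcodes by quality and 3522 by doublet score, 41981 nuclei were kept, with medians of 1807.5 to 2681 UMIs. Any pair of libraries shared 10 to 29 barcodes. Nuclei fell into 22 clusters, named only from fixed cell type markers, and 4 stayed unnamed. All members and their pathway lists were left out when the clusters were made. Some pathway list genes were still among the markers that named them. These were PECAM1, CDH5 and ESAM for endothelial, ITGAM for macrophage and IL1R1 for venous or capillary nuclei. Levels are CPM, the UMIs of a gene summed over a class within a pig and scaled to a common total, so a pig is 1 replicate. The p-values measure the spread between these 5 pigs, and all classes come from the same pigs. Levels were tested with edgeR's quasi-likelihood F-test and Benjamini-Hochberg adjustment over every gene tested in that class, and a gene was called at an adjusted p under 0.05. In summed nuclei, fewer nuclei carrying a transcript and less transcript in each cannot be told apart.

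Ordered by the median CPM over the 5 pigs, VCAM1 was highest in endothelial-like nuclei outside the arterial subclass (62.7 CPM), followed by pericyte-like (26.9 CPM) and arterial endothelial-like nuclei (17.2 CPM), with smooth muscle-like nuclei at 6.86 CPM and fibroblast-like nuclei at 3.06 CPM. ICAM1 followed the same order at its top, with 215, 174 and 153 CPM in those classes and 10.8 CPM in smooth muscle-like nuclei. SELP, the selectin stored in endothelial and platelet granules, had 82.9 CPM in endothelial-like nuclei outside the arterial subclass and 16.7 CPM in arterial ones, and at most 0.360 CPM in the other named classes.

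Among the NF-kB genes, the medians of the subunit gene NFKB1 ran up to 248 CPM in macrophage-like nuclei, and those of NFKB2 stayed at or under 10.5 CPM in every class. NFKBIA was highest outside the arterial subclass (117 CPM) and lowest in T or NK cell-like nuclei (2.59 CPM). NFKBIZ ran from 1236 CPM in pericyte-like to 121 CPM in T or NK cell-like nuclei. TNFAIP3 ran from 179 CPM in T or NK cell-like to 32.0 CPM in pericyte-like and 1.82 CPM in smooth muscle-like nuclei. BIRC3 had its highest median outside the arterial subclass, at 291 CPM, and 51.4 CPM in smooth muscle-like nuclei. For each gene, neighbours in these orders overlapped over the pigs. The medians pool obese and control pigs, whose levels differed for some genes. By a mean over nuclei of counts per 10000 UMIs, the place of arterial endothelial-like nuclei among 11 named and unnamed sets was 7 rather than 4 for VCAM1, and it moved by 1 for ICAM1, SELP, NFKB1, NFKBIA and BIRC3.

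**Figure D1:**
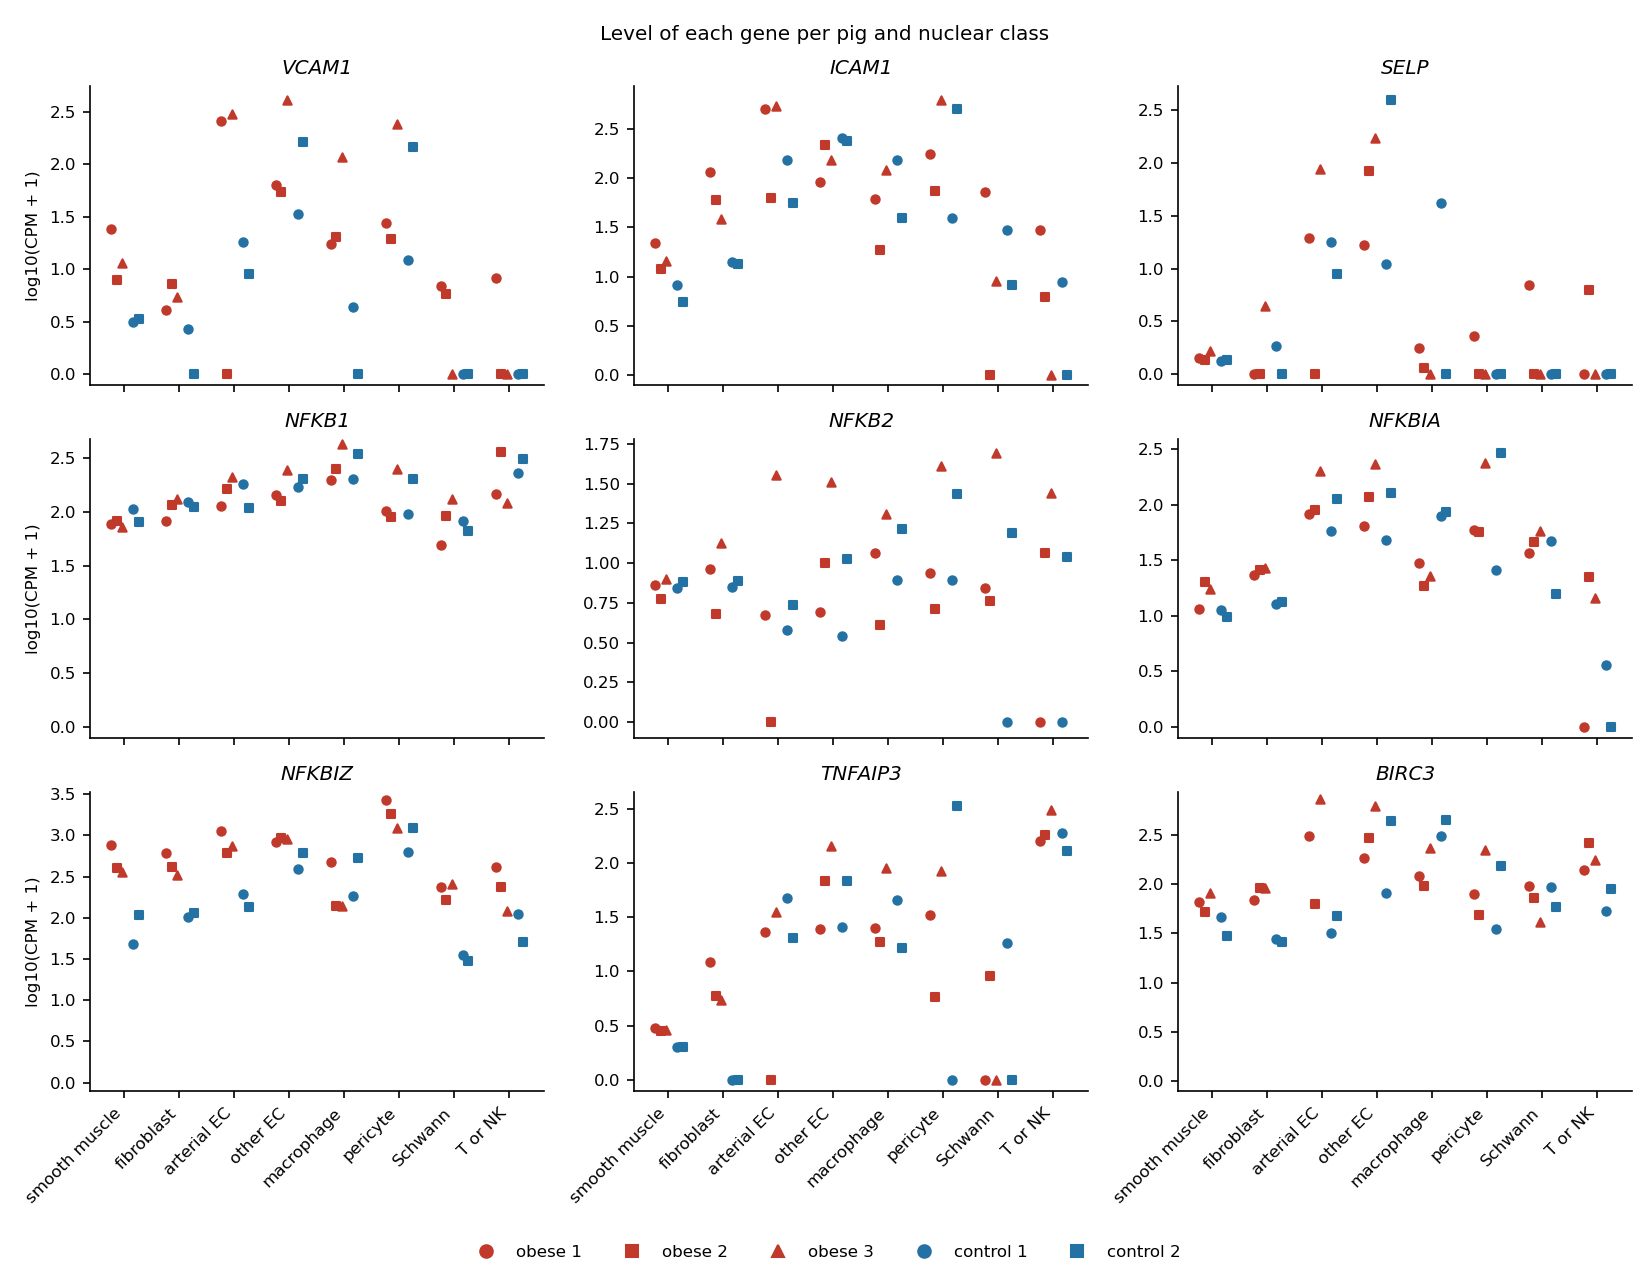
Level of each of the 9 matched genes, as log10(CPM + 1), in 8 classes of nuclei, with 1 point per pig (obese in red at the left of each class, control in blue at the right; EC, endothelial cells). NFKBIZ lies higher in all 3 obese pigs than in both control pigs in smooth muscle, fibroblast, both endothelial, Schwann and T or NK cell-like nuclei, but the groups overlap in macrophage- and pericyte-like nuclei.

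In endothelial-like nuclei NFKBIZ, BIRC3 and VCAM1 rose in the obese pigs, 3 of the 8 members tested, where 8.45% of the 6712 genes tested were called, 5.99% higher and 2.46% lower. NFKBIZ had 973, 854 and 858 CPM in obese pigs 1 to 3, against 226 and 176 CPM in control pigs 1 and 2. The means were 895 ± 67.3 CPM in the obese pigs (SD, n = 3) and 201 ± 35.8 CPM in the control pigs (SD, n = 2), without overlap (log2 fold change 2.24, SE 0.31, adjusted p = 0.00505). BIRC3, the apoptosis inhibitor and receptor-complex ubiquitin ligase, had 248, 245 and 658 CPM in obese pigs 1 to 3, against 38.8 and 78.5 CPM in control pigs 1 and 2. Its groups did not overlap either (log2 fold change 2.83, SE 0.57, adjusted p = 0.0189). VCAM1 had 162, 43.0 and 375 CPM in obese pigs 1 to 3, against 19.6 and 21.1 CPM in control pigs 1 and 2, again with every obese pig above both control pigs (log2 fold change 3.36, SE 0.79, adjusted p = 0.0313).

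The VCAM1 values rested on few molecules: 85, 24 and 127 UMIs in the obese pigs and 50 and 26 UMIs in the control pigs, of which 60, 8 and 51 in the obese pigs and 7 and 9 in the control pigs came from a single nucleus each. Without that nucleus the levels were 48.7, 28.8 and 233 CPM in the obese pigs and 16.9 and 13.8 CPM in the control pigs, still without overlap. The VCAM1 call was lost without obese pig 1 (3.51, adjusted p = 0.0582), obese pig 3 (2.38, adjusted p = 0.0524), control pig 1 (3.27, adjusted p = 0.0994) or control pig 2 (3.39, adjusted p = 0.0878). It held in 6 of 13 alternatives, with adjusted p of 6.63e-11 to 0.0994. BIRC3 lost its call without control pig 1 (2.37, adjusted p = 0.092; 4.3e-09 to 0.092 over 13 alternatives) and NFKBIZ without control pig 2 (2.04, adjusted p = 0.0567; 1.66e-10 to 0.0567 over 13 alternatives).

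ICAM1 also lay higher in every obese pig, with 301, 184 and 286 CPM in obese pigs 1 to 3, against 169 and 71.2 CPM in control pigs 1 and 2, and was not called (log2 fold change 1.19, SE 0.42, adjusted p = 0.112). In obese pig 1 a single nucleus held 103 of its 158 UMIs, and without the top nucleus of each pig the groups overlapped, at 107, 121 and 222 CPM in the obese pigs and 157 and 64.9 CPM in the control pigs. SELP overlapped between groups (17.2, 66.3 and 142 CPM in the obese pigs and 15.7 and 40.5 CPM in the control pigs, log2 fold change 1.51, SE 0.73, adjusted p = 0.233). So did NFKBIA, with 72.5, 111 and 221 CPM in the obese pigs and 55.2 and 112 CPM in the control pigs and a log2 fold change of 0.78 (SE 0.51, adjusted p = 0.371). TNFAIP3 gave 0.90 (SE 0.57, adjusted p = 0.355) and NFKB1 0.24 (SE 0.38, adjusted p = 0.739), while NFKB2, at 2, 4 and 11 UMIs in the obese pigs and 7 and 6 in the control pigs, was under the count filter. Every obese pig exceeded every control pig for 4 of the 8 members tested, against 19.4% of all genes tested there, and the members' median log2 fold change was 1.35, against -0.02 over all genes.

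The surrounding pathway moved in part. Of the other NF-kB feedback and target genes, 5 of 22 tested were called higher and 1 lower (median log2 fold change 0.44). Of the inputs, meaning cytokines, receptors and the kinases below them, 3 of 24 were called higher and 0 lower (0.32). Of the other subunits and inhibitors 2 of 5 were called higher (1.48), and of the adhesion partners 0 of 14 were called higher and 1 lower (0.46). SOD2, the mitochondrial superoxide dismutase, had 64.9, 66.3 and 94.4 CPM in the obese pigs and 11.4 and 8.10 CPM in the control pigs (2.98, SE 0.42, adjusted p = 0.00505). The cytokine gene IL6 had 43.9, 107 and 168 CPM in the obese pigs and 5.09 and 7.29 CPM in the control pigs (4.20, SE 0.63, adjusted p = 0.00665). IRAK2, a kinase of the interleukin-1 and Toll-like receptors, rose by 3.44 (SE 0.57, adjusted p = 0.00966), PELI1, a ubiquitin ligase of the same pathway, by 2.04 (SE 0.43, adjusted p = 0.021) and the transcription factor CEBPD by 1.84 (SE 0.38, adjusted p = 0.0208), all log2. BCL2L1, which encodes the survival protein BCL-XL, fell, with 63.0, 55.5 and 41.3 CPM in the obese pigs and 199.6 and 245 CPM in the control pigs (log2 fold change -1.97, SE 0.30, adjusted p = 0.00717).

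Other lists moved with the group in these nuclei. Of the lists beside the members, 19 immediate early and heat shock genes, known to answer to how tissue is handled, summed to 3573, 4968 and 5056 CPM in obese pigs 1 to 3, against 1363 and 3112 CPM in control pigs 1 and 2. In this list 12 of its 19 genes were higher in every obese pig, and 8 of 16 tested were called higher. FOS and HSPH1 were the list's top genes. The 12 smooth muscle markers summed to 1135, 2054 and 1298 CPM in the obese pigs and 866 and 665 CPM in the control pigs, with 7 of its 12 markers higher in every obese pig and none at 0. The 14 macrophage markers summed to 26.7, 129 and 20.6 CPM in the obese pigs and 5.48 and 10.5 CPM in the control pigs, with C1QA at 0. The endothelial markers summed to 4326, 4981 and 5787 CPM in the obese pigs and 5947 and 5419.8 CPM in the control pigs. Of the nuclei, cluster 14 held 161, 224 and 102 in obese pigs 1 to 3, against 165 and 56 in control pigs 1 and 2. The next endothelial cluster, 18, held 42, 23 and 20 in the obese pigs and 252 and 146 in the control pigs. The part of each in the member results was not tested.

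**Figure D2:**
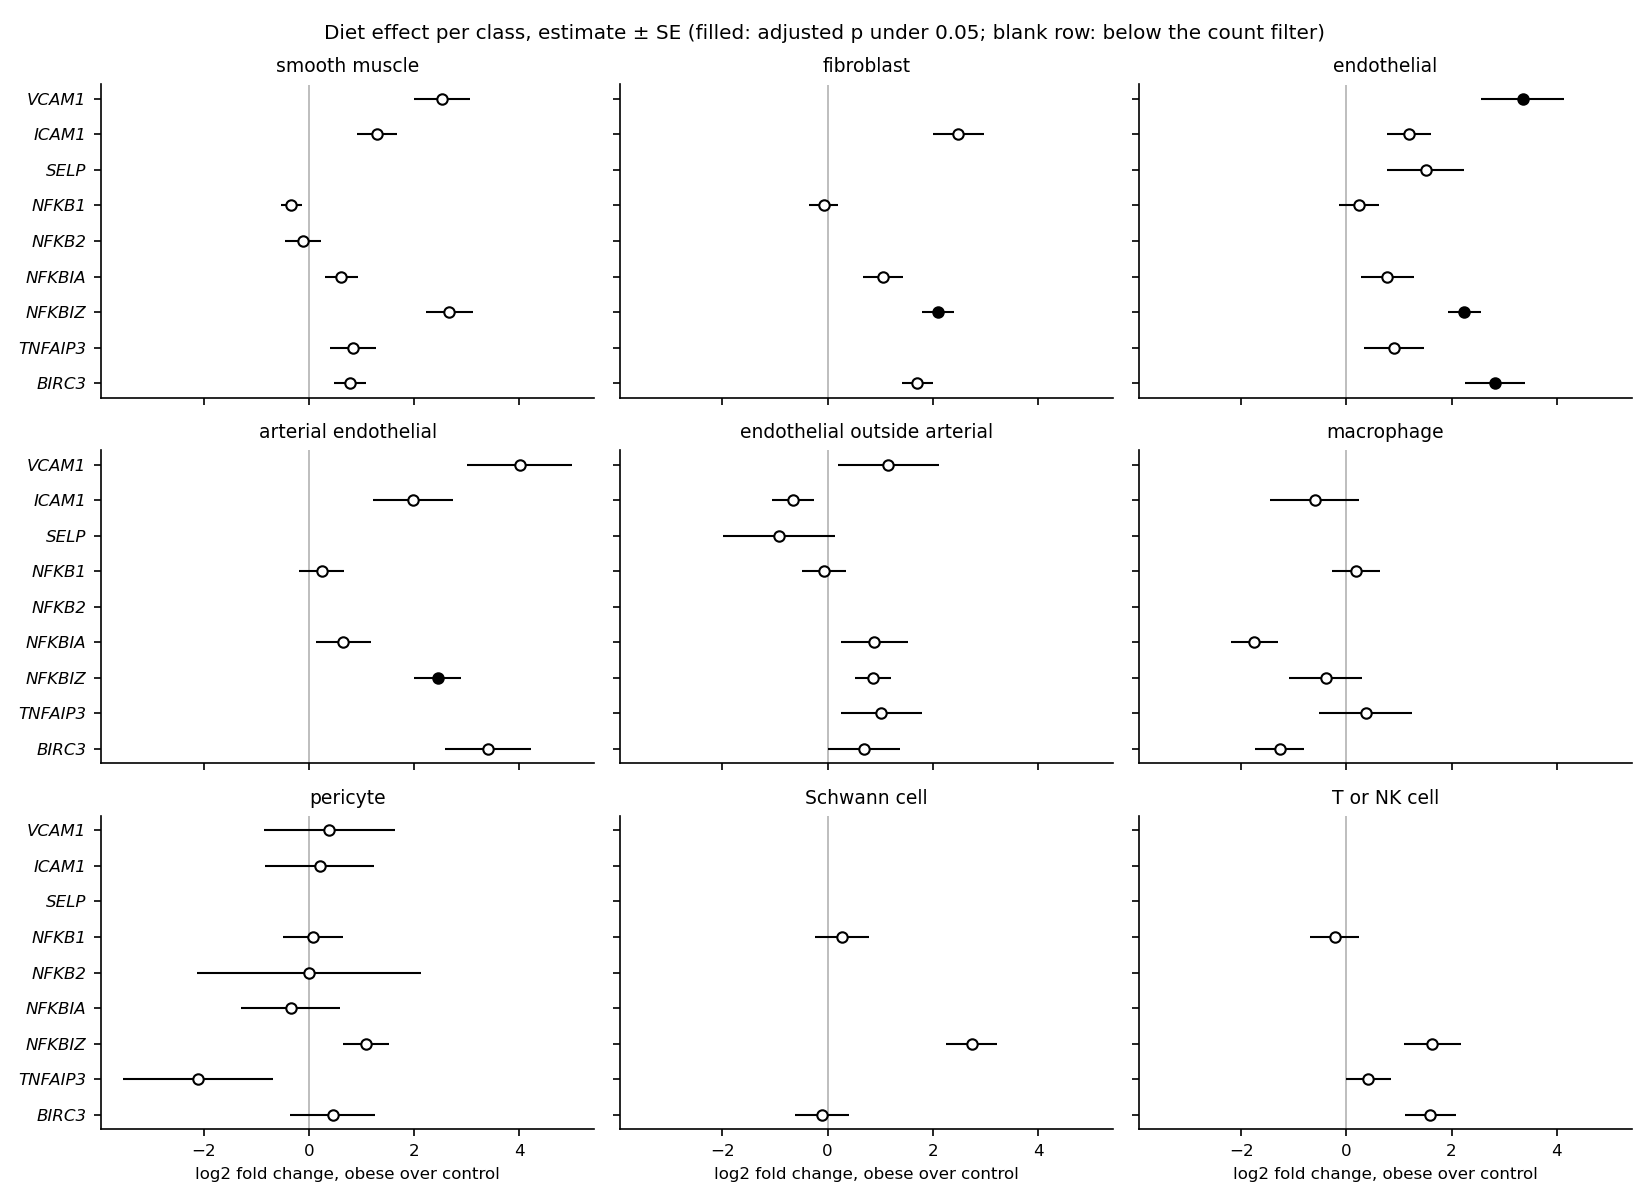
Log2 fold change of each gene, obese over control, with its SE, in 9 classes or subclasses of nuclei (filled, adjusted p under 0.05; open, not called; blank, under the count filter). Filled points are VCAM1, NFKBIZ and BIRC3 in endothelial-like nuclei and NFKBIZ in arterial endothelial-like and fibroblast-like nuclei, at 2.45 and 2.10.

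Within the endothelium, a subclass of 2 subclusters was named arterial, both from EFNB2 and BMX, one also from HEY2, ELN and LTBP4 and the other from FBLN5 and SULF1. A further subclass was named venous or capillary from ACKR1, NR2F2 and PLVAP. SULF1 also passed in that subclass and in the unnamed subclusters 1 and 4, and FBLN5 passed in subcluster 1. Each arterial subcluster also held a venous or capillary marker, EPHB4 in the one with HEY2 and IL1R1 in the other. Subcluster 4, led by KLHL14, stayed unnamed, with 8 arterial markers, among them GJA5, DLL4 and SOX17, and 4 venous or capillary ones. Subcluster 1 stayed unnamed too, with 5 venous or capillary and 2 arterial markers and lymphatic genes among its leading genes. Both are counted outside the arterial subclass, which thus means not named arterial. At a finer resolution a subcluster led by KLHL14, of 118 nuclei, was named arterial. So was one of 141 nuclei with GJA5, SOX17, FBLN5, MECOM and ELN. That one held 25, 51 and 13 nuclei of obese pigs 1 to 3 and 41 and 11 of control pigs 1 and 2. In arterial endothelial-like nuclei only NFKBIZ among the 6 members tested was called, where 2.11% of the 4508 genes tested were called. It had 1118, 607 and 752 CPM in obese pigs 1 to 3, against 196 and 135 CPM in control pigs 1 and 2, with no overlap (log2 fold change 2.45, SE 0.45, adjusted p = 0.0295). The call was lost without obese pig 1 (2.10, adjusted p = 0.0878), control pig 1 (2.72, adjusted p = 0.0678) or control pig 2 (2.18, adjusted p = 0.188), and held in 11 of 14 alternatives (adjusted p of 3.25e-06 to 0.188). The arterial subclass held 56, 44 and 28 nuclei in the obese pigs and 244 and 147 in the control pigs. In the obese pigs 51, 38 and 22 of them lay in a subcluster led by PTGS2 and CHI3L1 that held no control nucleus, while all arterial nuclei of the control pigs lay in the other subcluster. The one without control nuclei is the one whose markers lack HEY2, so arterial nuclei of the groups are mostly of different subclusters.

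The adhesion genes in arterial endothelial-like nuclei differed between obese pigs. VCAM1 had 256, 0 and 303 CPM in obese pigs 1 to 3, against 17.2 and 7.96 CPM in control pigs 1 and 2. Obese pigs 1 and 3 lay above both control pigs, and obese pig 2 had no VCAM1 UMI, which allows up to 26.8 CPM at a floor of 3 counts. The fit gave 4.01 (SE 1.00, adjusted p = 0.0757). In obese pig 1, 60 of its 69 UMIs came from 1 nucleus, and without the top nuclei the levels were 34.8, 0 and 183 CPM in the obese pigs and 14.0 and 6.22 CPM in the control pigs. Floors and intervals cover counting error only.

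ICAM1 showed the same split, with 502, 62.4 and 545 CPM in obese pigs 1 to 3, against 153 and 55.7 CPM in control pigs 1 and 2 (log2 fold change 1.99, SE 0.76, adjusted p = 0.236). In these nuclei 103 of the 135 UMIs of obese pig 1 were in a single nucleus. Obese pig 2 lay between the control pigs. BIRC3 was higher in every obese pig, with 308, 62.4 and 726 CPM in obese pigs 1 to 3, against 31.1 and 46.0 CPM in control pigs 1 and 2, and was not called (log2 fold change 3.40, SE 0.81, adjusted p = 0.0665). Left out in turn, obese pig 2 turned VCAM1 (4.57, adjusted p = 0.00574), ICAM1 (2.49, adjusted p = 0.046) and BIRC3 (3.91, adjusted p = 0.0153) into calls. The same held without control pig 1 for VCAM1 (4.66, adjusted p = 0.000249), ICAM1 (2.87, adjusted p = 0.0404) and BIRC3 (3.12, adjusted p = 0.0198), and without control pig 2 for VCAM1 (3.58, adjusted p = 0.00493) and BIRC3 (3.68, adjusted p = 0.00455). Over all alternatives the adjusted p ran from 2.43e-07 to 0.274 for VCAM1, 0.0404 to 0.58 for ICAM1 and 8.1e-06 to 0.132 for BIRC3.

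NFKBIA (81.7, 89.2 and 199 CPM in the obese pigs and 56.7 and 111 CPM in the control pigs, log2 fold change 0.65, SE 0.52, adjusted p = 0.569) and NFKB1 (0.25, SE 0.43, adjusted p = 0.823) overlapped between the groups. SELP, NFKB2 and TNFAIP3 were under the count filter. TNFAIP3 had 6, 0 and 4 UMIs in the obese pigs and 99 and 22 UMIs in the control pigs, which had far more arterial nuclei. Scaled to CPM, TNFAIP3 ran from 0 to 46.0 over the 5 pigs, with a median of 22.3, and the groups overlapped. SELP had 18.6, 0 and 86.4 CPM in the obese pigs and 16.7 and 7.96 CPM in the control pigs. NFKBIZ and BIRC3, 2 of the 6 members tested, lay above both control pigs in every obese pig, against 13.2% of genes tested. Of the pathway lists, TLR4, the lipopolysaccharide receptor, was called higher (3.45, SE 0.72, adjusted p = 0.0412) and BCL2L1 lower (-2.0, SE 0.40, adjusted p = 0.0375). The handling genes summed to 3887, 5325 and 5204 CPM in the obese pigs and 1238 and 3083 CPM in the control pigs, with 5 of 16 tested called higher, and their part was not tested.

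Endothelial-like nuclei outside the arterial subclass gave no calls. None of the 4588 genes tested was called by edgeR (0.0%), with 510 at an unadjusted p under 0.05 and 39 called by DESeq2. VCAM1 had 62.7, 53.8 and 412 CPM in obese pigs 1 to 3, against 32.4 and 163 CPM in control pigs 1 and 2. ICAM1 had 90.2, 215 and 152 CPM in the obese pigs and 254 and 240.4 CPM in the control pigs. ICAM1 was lower in every obese pig, 1 of 8 members against 15.6% of genes tested, and VCAM1 overlapped. Their log2 fold changes were 1.16 (SE 0.95, adjusted p = 0.708) for VCAM1 and -0.65 (SE 0.40, adjusted p = 0.597) for ICAM1. SELP ranged from 15.7 to 170.2 CPM in the obese pigs and from 9.96 to 394 CPM in the control pigs (-0.92, SE 1.06, adjusted p = 0.805).

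NFKBIZ outside the arterial subclass was the 1 member of 8 above control in every obese pig, against 13.2% of genes tested, with 819, 917 and 913 CPM in obese pigs 1 to 3, against 389 and 615 CPM in control pigs 1 and 2 (log2 fold change 0.87, SE 0.34, adjusted p = 0.375). BIRC3 (184, 291 and 622 CPM in the obese pigs and 79.7 and 433 CPM in the control pigs, log2 fold change 0.69, SE 0.68, adjusted p = 0.764) and TNFAIP3 (23.5, 67.2 and 143 CPM in the obese pigs and 24.9 and 67.3 CPM in the control pigs, log2 fold change 1.02, SE 0.77, adjusted p = 0.674) overlapped between groups. NFKBIA gave 0.89 (SE 0.63, adjusted p = 0.651) and NFKB1 -0.06 (SE 0.42, adjusted p = 0.97). The pathway genes of smallest p there were TRAF3 at 1.86 (SE 0.48, adjusted p = 0.147) and BCL2L1 at -1.44 (SE 0.39, adjusted p = 0.178), where TRAF3 encodes an adaptor of tumour necrosis factor receptors. The handling genes summed to 3242, 4879 and 4979 CPM in the obese pigs and 2030.3 and 3433 CPM in the control pigs there.

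**Figure D3:**
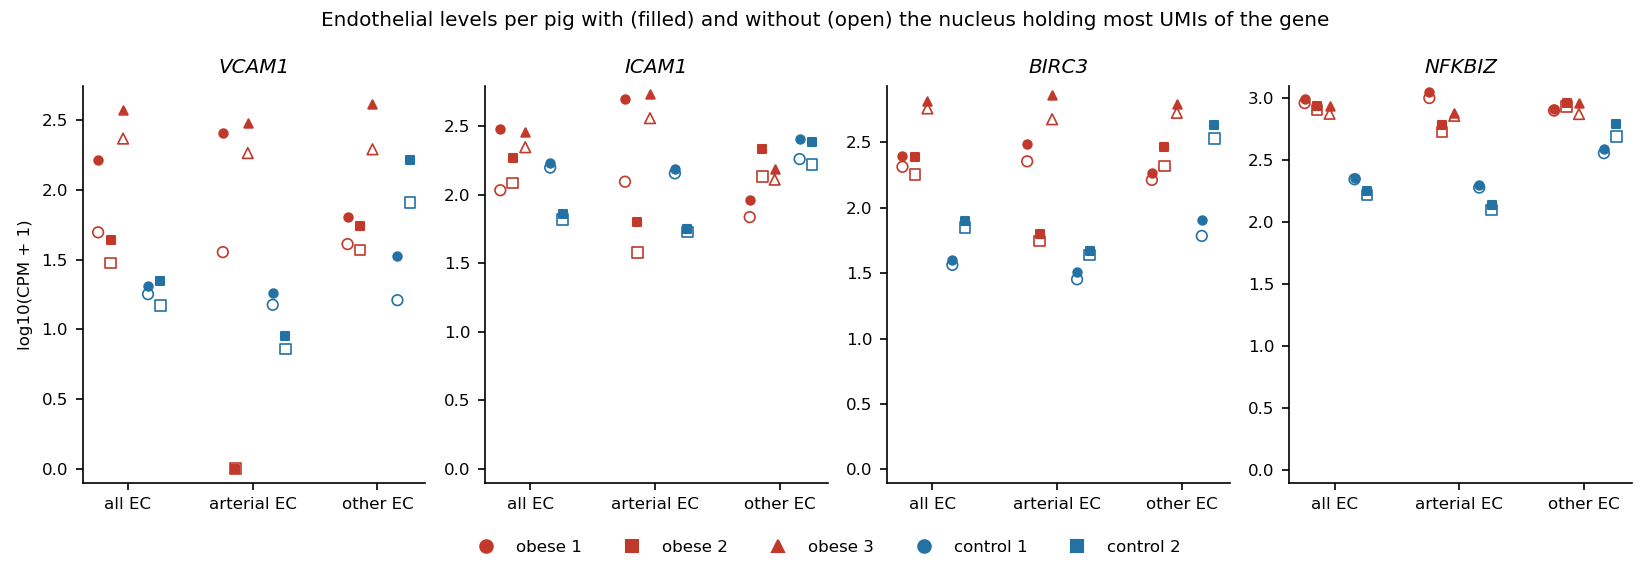
Levels of VCAM1, ICAM1, BIRC3 and NFKBIZ, as log10(CPM + 1), in all endothelial-like nuclei, the arterial subclass and the other endothelial-like nuclei, with 1 filled point per pig (obese red at the left, control blue at the right) and an open point for the level without the nucleus that holds most UMIs of the gene. VCAM1 of obese pig 2 is at 0 in the arterial subclass, and the open points of obese pig 1 fall well below its filled points for VCAM1 and ICAM1 there.

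Arterial and venous or capillary endothelial-like nuclei of the same pig were compared with the pig as a block, over the 4 pigs that had at least 20 nuclei in both. Control pig 2, with 8 venous or capillary nuclei, was left out of that fit. None of the 6 members tested was called, where 10.0% of the 2808 genes tested were called higher in arterial nuclei and 9.86% lower, 19.9% together. VCAM1 had 256, 0 and 303 CPM in arterial nuclei of the obese pigs and 17.2 CPM in those of control pig 1, against 19.3, 81.9 and 558 CPM and 28.7 CPM in venous or capillary nuclei. It was higher in arterial nuclei in obese pig 1 and lower in the other 3, and the difference was -0.21 (SE 0.78, adjusted p = 0.907). ICAM1 had 502, 62.4 and 545 CPM and 153 CPM in arterial nuclei of the same pigs, against 38.6, 396 and 159 CPM and 252 CPM in venous or capillary nuclei, a difference of 0.45 (SE 0.77, adjusted p = 0.78). SELP was under the filter, at 18.6, 0 and 86.4 CPM and 16.7 CPM in arterial nuclei, against 9.65, 159 and 228 CPM and 21.6 CPM in venous or capillary nuclei.

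The regulators gave differences, arterial minus venous or capillary, of -0.81 (SE 0.49, adjusted p = 0.31) for BIRC3, -0.59 (SE 0.36, adjusted p = 0.33) for NFKBIZ, -0.29 (SE 0.37, adjusted p = 0.674) for NFKBIA and -0.07 (SE 0.31, adjusted p = 0.924) for NFKB1. With subclusters made at a finer resolution, NFKBIZ and BIRC3 passed as lower in arterial nuclei, at -1.73 (adjusted p = 0.00708; 0.00708 to 0.961 over its alternatives) and -2.16 (adjusted p = 0.0429; 0.0429 to 0.881). In the lists fixed around the members, TNFAIP8, CXCL2 and EZR were higher in arterial nuclei, at 4.93 (SE 0.38, adjusted p = 1.4e-05), 2.74 (SE 0.52, adjusted p = 0.00254) and 3.14 (SE 0.52, adjusted p = 0.0011). IRAK2 and JAM3 were lower, at -3.22 (SE 0.50, adjusted p = 0.000768) and -2.38 (SE 0.51, adjusted p = 0.00538). EZR encodes ezrin, the linker that anchors VCAM1 and ICAM1 to the actin cortex, CXCL2 a neutrophil chemokine and JAM3 a junctional adhesion molecule. The difference of the diet effect between the subclasses was fitted over the same 4 pigs, so its control side was control pig 1 alone, assumed to vary like the obese pigs, and the fit gives no evidence that the effects were alike. No member was among the calls, with 0 of 4547 genes called by edgeR (0.0%), 0 by DESeq2 and 238 at an unadjusted p under 0.05. The difference was 1.69 (SE 1.29, adjusted p = 1) for ICAM1 and 0.62 (SE 1.65, adjusted p = 1) for VCAM1. It was -1.42 (SE 1.54, adjusted p = 1) for SELP, 0.019 (SE 0.78, adjusted p = 1) for NFKB1 and -0.64 (SE 0.97, adjusted p = 1) for NFKBIA. For the other feedback genes it was 1.28 (SE 0.76, adjusted p = 1) for NFKBIZ, -3.17 (SE 1.54, adjusted p = 0.951) for TNFAIP3 and 1.37 (SE 0.99, adjusted p = 1) for BIRC3, and for the pathway genes of smallest p 2.59 (SE 0.88, adjusted p = 0.739) for IL1R1 and -2.92 (SE 1.12, adjusted p = 0.823) for RNF11. Set against all other endothelial-like nuclei in the 5 pigs, arterial nuclei again gave no member call, where 8.89% of the 4106 genes tested were called higher and 10.2% lower. VCAM1 was then at -0.86 (SE 0.71, adjusted p = 0.488) and ICAM1 at 0.02 (SE 0.63, adjusted p = 0.991). The diet effect in arterial minus that in all other endothelial-like nuclei was called for 0.11% of 5434 genes, all of them higher, and for no member. It was 2.47 (SE 0.85, adjusted p = 0.367) for ICAM1, 2.15 (SE 0.73, adjusted p = 0.367) for BIRC3, 1.45 (SE 0.52, adjusted p = 0.418) for NFKBIZ and 2.62 (SE 1.08, adjusted p = 0.548) for VCAM1.

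Smooth muscle-like nuclei, the largest class, carried low levels of the adhesion genes, and none of the 8 members tested was called, beside 0.0864% of 17356 genes tested (0.0691% higher and 0.0173% lower). NFKBIZ had 758, 402 and 364 CPM in obese pigs 1 to 3, against 46.5 and 106 CPM in control pigs 1 and 2. The means were 508 ± 217 CPM in the obese pigs (SD, n = 3) and 76.2 ± 42.0 CPM in the control pigs (SD, n = 2) (log2 fold change 2.67, SE 0.44, adjusted p = 0.0707). Each obese pig lay above both control pigs. VCAM1 had 23.1, 6.86 and 10.4 CPM in obese pigs 1 to 3, against 2.16 and 2.34 CPM in control pigs 1 and 2 (log2 fold change 2.53, SE 0.53, adjusted p = 0.107). ICAM1 had 21.0, 10.8 and 13.5 CPM in the obese pigs and 7.30 and 4.50 CPM in the control pigs (log2 fold change 1.30, SE 0.38, adjusted p = 0.191). Neither overlapped between the groups. NFKBIZ passed the threshold without obese pig 2 (2.85, adjusted p = 0.0325) or obese pig 3 (2.84, adjusted p = 0.0329), and VCAM1 without obese pig 2 (2.86, adjusted p = 0.0325), with adjusted p of 9.63e-21 to 0.322 and 7.35e-07 to 0.431 over all alternatives.

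Smaller differences were measured for the feedback genes. TNFAIP3 had 2.04, 1.82 and 1.91 CPM in obese pigs 1 to 3, against 1.03 and 1.02 CPM in control pigs 1 and 2 (log2 fold change 0.84, SE 0.44, adjusted p = 0.458). BIRC3 had 64.2, 51.4 and 80.5 CPM in the obese pigs and 45.3 and 28.6 CPM in the control pigs (0.79, SE 0.30, adjusted p = 0.303). NFKBIA had 10.4, 19.0 and 16.3 CPM in the obese pigs and 10.3 and 8.81 CPM in the control pigs (0.62, SE 0.31, adjusted p = 0.442). With VCAM1, ICAM1 and NFKBIZ, these made 6 of 8 members higher in every obese pig, against 17.8% of genes tested, none of the 6 called. The subunit genes NFKB1 (-0.33, SE 0.20, adjusted p = 0.528) and NFKB2 (-0.11, SE 0.34, adjusted p = 0.925) overlapped, and SELP, at or under 0.660 CPM in every pig, was filtered. Of the pathway lists, CEBPD was the 1 gene called, with 26.2, 35.5 and 30.6 CPM in the obese pigs and 6.39 and 6.65 CPM in the control pigs (2.18, SE 0.27, adjusted p = 0.0335). GADD45B, a stress-response gene, had 27.8, 32.7 and 46.0 CPM in the obese pigs and 8.68 and 13.7 CPM in the control pigs and was not called (1.63, SE 0.34, adjusted p = 0.107).

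Different clusters held most smooth muscle-like nuclei in the groups: clusters 2, 4 and 6 in the obese pigs and clusters 0, 1 and 7 in the control pigs. A further one, cluster 15, led by heat shock genes, held 7, 66 and 187 nuclei in the obese pigs and 0 and 361 in the control pigs. The handling genes summed to 2201, 2147 and 4784 CPM in the obese pigs and 834 and 2673 CPM in the control pigs in smooth muscle-like nuclei, with 6 of its 19 genes higher in every obese pig and 0 of 19 called. Macrophage markers summed to 23.3, 83.2 and 15.5 CPM in the obese pigs and 7.46 and 11.9 CPM in the control pigs there. Their part was not tested.

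In fibroblast-like nuclei NFKBIZ rose in the obese pigs, 1 of 5 members tested, where 0.171% of 8762 genes tested were called, 0.148% higher and 0.0228% lower. It had 605, 417 and 327 CPM in obese pigs 1 to 3, against 100.5 and 113 CPM in control pigs 1 and 2. The means were 449.8 ± 142 CPM in the obese pigs (SD, n = 3) and 107 ± 8.69 CPM in the control pigs (SD, n = 2) (log2 fold change 2.10, SE 0.30, adjusted p = 0.0378). ICAM1 was higher in every obese pig, with 115, 59.4 and 37.1 CPM in obese pigs 1 to 3, against 12.9 and 12.3 CPM in control pigs 1 and 2. So was BIRC3, with 68.4, 89.4 and 90.0 CPM in the obese pigs and 26.7 and 24.6 CPM in the control pigs. Neither was called, ICAM1 at 2.49 (SE 0.48, adjusted p = 0.0814) and BIRC3 at 1.70 (SE 0.29, adjusted p = 0.0598). NFKBIA had 22.4, 25 and 25.9 CPM in the obese pigs and 11.6 and 12.3 CPM in the control pigs (1.06, SE 0.38, adjusted p = 0.347), also without overlap, and NFKB1 overlapped (-0.07, SE 0.27, adjusted p = 0.953). These 4 of 5 members above control in every obese pig compare with 12.6% of genes tested.

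The 4 other members were under the filter. TNFAIP3 had 11, 8 and 4 UMIs in the obese pigs and none in either control pig, at least 7.1-fold higher against a floor of 3 counts over the control group. VCAM1 had 3, 10 and 4 UMIs in the obese pigs and 4 and 0 in the control pigs, SELP 0, 0 and 3 and 2 and 0, and NFKB2 8, 6 and 11 and 14 and 6. The NFKBIZ call was lost without obese pig 1 (1.83, adjusted p = 0.214), control pig 1 (1.97, adjusted p = 0.571) or control pig 2 (2.20, adjusted p = 0.338), with adjusted p of 1.18e-08 to 0.571 over its alternatives. ICAM1 became a call without obese pig 2 (2.64, adjusted p = 0.03) or obese pig 3 (2.75, adjusted p = 0.0158), and so did BIRC3 (1.69, adjusted p = 0.0443 and 1.58, adjusted p = 0.0364). The adjusted p ran from 1.35e-06 to 0.61 for ICAM1 and from 0.000937 to 0.571 for BIRC3 over all alternatives. None of the pathway genes outside the members was called in these nuclei. TNFAIP6, a hyaluronan-binding product of inflamed stroma, gave 1.84 (SE 0.39, adjusted p = 0.106), and RNF11, a partner of A20, gave 1.24 (SE 0.31, adjusted p = 0.181). The handling genes summed to 3555, 4083 and 5487 CPM in obese pigs 1 to 3, against 1064 and 1699.6 CPM in control pigs 1 and 2, with 13 of its 19 genes higher in every obese pig and 1 of 17 tested called higher. Their part was not tested.

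Macrophage-like nuclei gave lower values of 2 inhibitor and feedback genes, NFKBIA and BIRC3, but none of the 6 members tested was called, beside 2.15% of 5897 genes. NFKBIA had 28.6, 17.7 and 22.0 CPM in obese pigs 1 to 3, against 78.4 and 85.0 CPM in control pigs 1 and 2 (log2 fold change -1.75, SE 0.44, adjusted p = 0.0956). BIRC3 had 120.3, 94.6 and 233 CPM in obese pigs 1 to 3, against 310.3 and 448 CPM in control pigs 1 and 2 (log2 fold change -1.27, SE 0.47, adjusted p = 0.221). Both lay below control in every obese pig, 2 of 6 members, against 20.6% of genes tested. The other 4 overlapped. NFKBIZ had 470.0, 137 and 137 CPM in the obese pigs and 184 and 525 CPM in the control pigs (log2 fold change -0.39, SE 0.70, adjusted p = 0.851). ICAM1 had 60.2, 17.7 and 121 CPM in the obese pigs and 153 and 38.6 CPM in the control pigs (-0.60, SE 0.85, adjusted p = 0.792). TNFAIP3 gave 0.37 (SE 0.88, adjusted p = 0.896) and NFKB1 0.19 (SE 0.46, adjusted p = 0.896).

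VCAM1 in macrophage-like nuclei was under the filter, with 22, 124 and 42 UMIs in the obese pigs and 1 and 0 in the control pigs, or 16.5, 19.2 and 115 CPM in the obese pigs and 3.41 and 0 CPM in the control pigs. The ratio of the pooled counts was 9.76, with a 95% counting interval of 1.73 to 388. SELP had 1, 1 and 0 UMIs in the obese pigs and 12 and 0 in the control pigs, and NFKB2 14, 20 and 7 and 2 and 2. The class counted 416, 1393 and 145 nuclei in the obese pigs and 84 and 39 in the control pigs. Beside these values, the 11 B or plasma cell markers summed to 1221, 716 and 687 CPM in the obese pigs and 5800.2 and 1313 CPM in the control pigs in the class, with 7 of them lower in every obese pig and TNFRSF17 at 0. The 12 smooth muscle markers summed there to 3476, 648 and 1714 CPM in the obese pigs and 1742 and 2071 CPM in the control pigs, none at 0. The 14 macrophage markers summed to 1191, 2728 and 1376 CPM in the obese pigs and 1609 and 2047 CPM in the control pigs. The part of these lists was not tested. BCL2L1 was the pathway gene called, with 141, 254 and 184 CPM in the obese pigs and 27.3 and 38.6 CPM in the control pigs (2.70, SE 0.48, adjusted p = 0.0429). ITGAL, the alpha chain of the leukocyte integrin that binds ICAM1, gave -2.52 (SE 0.54, adjusted p = 0.0615).

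No member and no gene was called in pericyte-, Schwann cell- or T or NK cell-like nuclei by edgeR (0.0% in each), with 381, 331 and 341 genes at an unadjusted p under 0.05 and 14, 11 and 22 called by DESeq2. In pericyte-like nuclei NFKBIZ had 2674, 1804 and 1213 CPM in obese pigs 1 to 3, against 629.6 and 1236 CPM in control pigs 1 and 2 (log2 fold change 1.10, SE 0.44, adjusted p = 0.744). Control pig 2, with 64 such nuclei, was as high as an obese pig for most members. ICAM1 had 174, 73.2 and 628 CPM in the obese pigs and 38.5 and 511 CPM in the control pigs, and VCAM1 had 26.9, 18.5 and 239.6 CPM in the obese pigs and 11.3 and 146 CPM in the control pigs. NFKBIA had 57.6, 56.1 and 236 CPM in the obese pigs and 24.9 and 292 CPM in the control pigs, and TNFAIP3 had 32.0, 4.79 and 83.5 CPM in the obese pigs and 0 and 334 CPM in the control pigs. None of 8 members lay above control in every obese pig, against 9.41% of genes tested. The fitted values were 0.21 (SE 1.04, adjusted p = 0.979) for ICAM1, 0.39 (SE 1.25, adjusted p = 0.972) for VCAM1, -0.35 (SE 0.94, adjusted p = 0.971) for NFKBIA and -2.10 (SE 1.42, adjusted p = 0.858) for TNFAIP3. BIRC3 gave 0.45 (SE 0.80, adjusted p = 0.956), NFKB1 0.08 (SE 0.57, adjusted p = 0.984) and NFKB2 0.01 (SE 2.13, adjusted p = 1). The pathway genes of smallest p in pericyte-like nuclei were TNFAIP6 at 2.85 (SE 1.23, adjusted p = 0.75) and IRAK2 at 1.25 (SE 0.56, adjusted p = 0.764). The handling genes summed to 5401, 5954 and 6812 CPM in the obese pigs and 2188 and 4704 CPM in the control pigs there, and their part was not tested.

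Schwann cell-like nuclei, from nerves of the wall, had 239, 165 and 259 CPM in obese pigs 1 to 3, against 34.7 and 29.0 CPM in control pigs 1 and 2 for NFKBIZ, without overlap (log2 fold change 2.74, SE 0.49, adjusted p = 0.0916). That was 1 of 3 members tested, against 13.7% of genes tested, the others being NFKB1 (0.27, SE 0.52, adjusted p = 0.932) and BIRC3 (-0.11, SE 0.51, adjusted p = 0.975). In these nuclei the handling genes summed to 1843, 2538 and 4786 CPM in the obese pigs and 953 and 2199.6 CPM in the control pigs, with 11 of 12 tested at a log2 fold change above 0 (median 1.12) and 0 called. The pathway genes of smallest p were IFNGR2 at -1.88 (SE 0.38, adjusted p = 0.125) and RNF11 at 1.85 (SE 0.85, adjusted p = 0.536). In T or NK cell-like nuclei TNFAIP3, which restrains receptor signalling in lymphocytes, had 159.6, 179 and 308 CPM in obese pigs 1 to 3, against 187 and 128 CPM in control pigs 1 and 2 (log2 fold change 0.42, SE 0.43, adjusted p = 0.831). NFKBIZ there had 413, 237 and 121 CPM in the obese pigs and 111 and 49.2 CPM in the control pigs (1.64, SE 0.55, adjusted p = 0.293). BIRC3 had 138, 259 and 174 CPM in the obese pigs and 51.8 and 88.6 CPM in the control pigs (1.59, SE 0.49, adjusted p = 0.223). Both were higher in every obese pig, 2 of 4 members tested, against 11.4% of genes tested, and NFKB1 overlapped (-0.22, SE 0.46, adjusted p = 0.931). The handling genes summed there to 2306, 3973 and 3013 CPM in the obese pigs and 399 and 2797 CPM in the control pigs, with 9 of 11 tested at a log2 fold change above 0 (median 1.28) and 0 called. The integrin genes ITGAL and ITGAM were the pathway genes of smallest p, at -2.17 (SE 0.42, adjusted p = 0.0982) and -3.76 (SE 0.77, adjusted p = 0.109). The part of the handling genes in either class was not tested.

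Summed over all kept nuclei, no member was called, beside 0.00499% of 20052 genes by edgeR. VCAM1 had 27.7, 12.2 and 15.1 CPM in obese pigs 1 to 3, against 4.24 and 4.84 CPM in control pigs 1 and 2 (log2 fold change 1.96, SE 0.42, adjusted p = 0.14). NFKBIZ had 919, 459 and 353 CPM in the obese pigs and 71.9 and 131 CPM in the control pigs (log2 fold change 2.43, SE 0.47, adjusted p = 0.119). ICAM1 had 58.4, 29.9 and 31.0 CPM in the obese pigs and 19.9 and 14.6 CPM in the control pigs. BIRC3 had 85.4, 71.2 and 105 CPM in the obese pigs and 48.5 and 38.1 CPM in the control pigs, and NFKBIA had 22.4, 25.1 and 27.7 CPM in the obese pigs and 14.1 and 18.8 CPM in the control pigs. With TNFAIP3, these were 6 of 9 members above control in every obese pig, against 17.8% of genes tested. NFKBIZ passed without obese pig 2 (2.63, adjusted p = 0.0327) or obese pig 3 (2.65, adjusted p = 0.0254) and VCAM1 without obese pig 2 (2.24, adjusted p = 0.0234), with adjusted p of 7.98e-05 to 0.719 and 0.000959 to 0.719 over all alternatives. The fitted values of the other members were 1.15 (SE 0.36, adjusted p = 0.237) for ICAM1, 0.97 (SE 0.28, adjusted p = 0.218) for BIRC3, 0.55 (SE 0.28, adjusted p = 0.417) for NFKBIA and 0.27 (SE 0.29, adjusted p = 0.713) for TNFAIP3, and 0.039 (SE 0.21, adjusted p = 0.949) for NFKB1, -0.015 (SE 0.39, adjusted p = 0.991) for NFKB2 and -0.37 (SE 0.50, adjusted p = 0.772) for SELP. CEBPD and PECAM1 were the pathway genes of smallest p, at 1.99 (SE 0.27, adjusted p = 0.0725) and -1.57 (SE 0.24, adjusted p = 0.0793). Over all nuclei the handling genes summed to 2886, 2754 and 4730.1 CPM in the obese pigs and 1048 and 2705 CPM in the control pigs, with 15 of 19 tested at a log2 fold change above 0 (median 0.95) and 0 called, and their part was not tested. The classes made up different parts of the obese and control libraries, so these sums mix makeup and level.

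Whether the diet effect differed between classes was tested directly, as the effect in a class minus that in smooth muscle-like nuclei with the pig as a block. BIRC3 rose further in endothelial-like than in smooth muscle-like nuclei, by 1.80 (SE 0.38, adjusted p = 0.000696) on the log2 scale, 1 of 9 members, where 3.67% of 16257 genes were called, 2.07% higher and 1.6% lower. Fitted for each class alone, the obese over control effects were 2.83 in endothelial-like and 0.79 in smooth muscle-like nuclei. The arterial subclass made up 56, 44 and 28 of the 203, 247 and 122 endothelial-like nuclei of obese pigs 1 to 3, against 244 and 147 of 417 and 202 in control pigs 1 and 2, and outside it the effect on BIRC3 was 0.69. The part of this makeup in the difference was not tested. The difference was lost without control pig 1 (0.97, adjusted p = 0.491; 9.59e-05 to 0.491 over its alternatives). NFKBIZ (-0.64, SE 0.37, adjusted p = 0.463), VCAM1 (0.42, SE 0.49, adjusted p = 0.784) and ICAM1 (-0.19, SE 0.37, adjusted p = 0.891) were not called. The other differences not called were 1.10 (SE 0.75, adjusted p = 0.556) for SELP, 1.79 (SE 0.81, adjusted p = 0.271) for NFKB2, -0.00072 (SE 0.24, adjusted p = 1) for NFKBIA and -0.19 (SE 0.57, adjusted p = 0.94) for TNFAIP3. NFKB1 gave 0.38 (SE 0.36, adjusted p = 0.714) and was called in 2 of 12 alternatives, at 1.22 without doublet removal (adjusted p = 0.0191) and at 1.33 with a clustering resolution of 0.5 (adjusted p = 0.0483), over a range of 0.0191 to 1.

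In macrophage-like nuclei the effect was lower than in smooth muscle-like nuclei for NFKBIZ (-2.92, SE 0.53, adjusted p = 2.34e-05), BIRC3 (-1.82, SE 0.51, adjusted p = 0.0188) and NFKBIA (-2.04, SE 0.63, adjusted p = 0.0445), where 3.26% of 16926 genes were called and the median of all genes was 0.43. NFKBIZ passed in 12 of 12 alternatives (adjusted p of 4.53e-08 to 0.0136). The BIRC3 difference was lost without obese pig 1 (-1.73, adjusted p = 0.0604) or control pig 2 (-1.23, adjusted p = 0.501; 0.00292 to 0.501 over its alternatives). NFKBIA was lost without obese pig 2 (-1.83, adjusted p = 0.208), obese pig 3 (-2.08, adjusted p = 0.0725), control pig 1 (-2.23, adjusted p = 0.236) or control pig 2 (-1.88, adjusted p = 0.207; 0.0121 to 0.236 over its alternatives). ICAM1 gave -1.75 (SE 0.62, adjusted p = 0.113) and was called without obese pig 3 (-2.46, adjusted p = 0.0145; 0.0145 to 0.934 over its alternatives). The members not called further gave 1.90 (SE 1.41, adjusted p = 0.679) for VCAM1, 0.77 (SE 0.51, adjusted p = 0.624) for NFKB1, 0.20 (SE 1.06, adjusted p = 0.957) for NFKB2 and -0.42 (SE 0.80, adjusted p = 0.874) for TNFAIP3, where VCAM1 had 1 and 0 UMIs in the macrophage-like nuclei of the control pigs. Between fibroblast- and smooth muscle-like nuclei no member was called, beside 0.0063% of genes, with ICAM1 at 1.19 (SE 0.40, adjusted p = 0.613), BIRC3 at 0.98 (SE 0.31, adjusted p = 0.567) and NFKBIZ at -0.70 (SE 0.28, adjusted p = 0.705). The other members gave -0.32 (SE 1.13, adjusted p = 0.992) for VCAM1, 0.22 (SE 0.26, adjusted p = 0.946) for NFKB1, 0.37 (SE 0.55, adjusted p = 0.962) for NFKB2 and 0.46 (SE 0.38, adjusted p = 0.907) for NFKBIA, and the pathway genes of smallest p, neither called, gave -0.57 (SE 0.21, adjusted p = 0.674) for JAM3 and 1.35 (SE 0.49, adjusted p = 0.675) for TLR2. The B cell and smooth muscle marker sums given above for the macrophage-like class apply to these differences too.

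**Figure D4:**
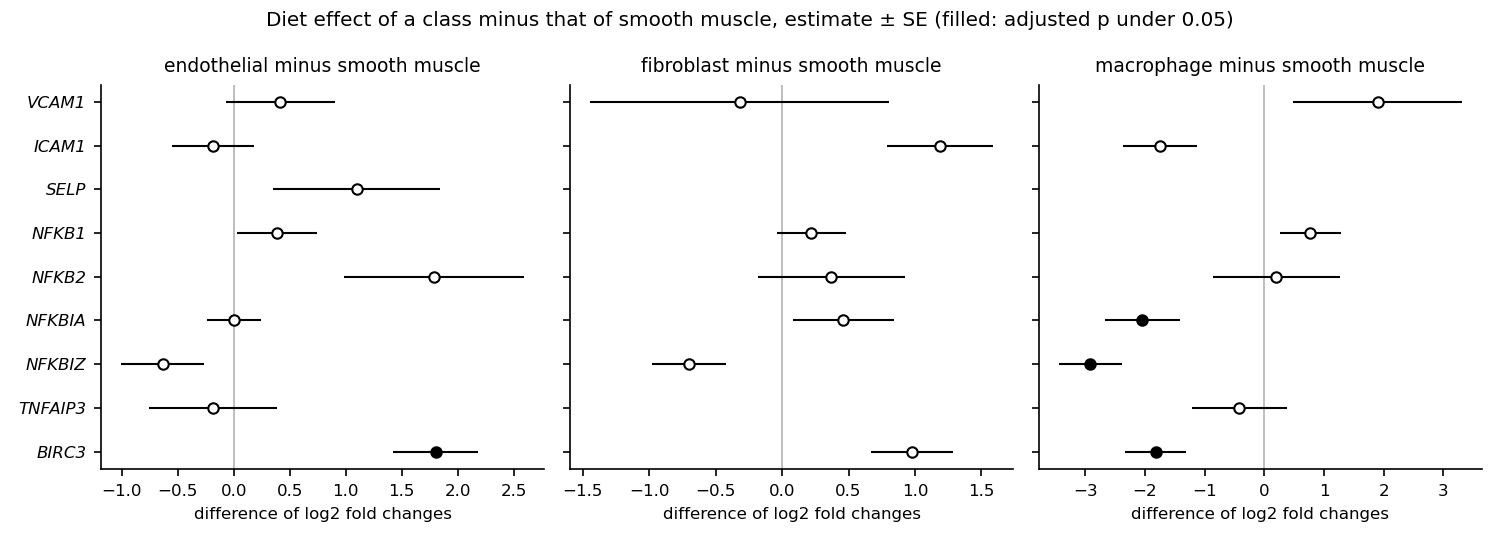
Diet effect (log2 fold change, obese over control) in endothelial-, fibroblast- and macrophage-like nuclei minus that in smooth muscle-like nuclei, with its SE (filled, adjusted p under 0.05). BIRC3 is filled to the right of 0 in the endothelial panel, and NFKBIA, NFKBIZ and BIRC3 are filled to the left of 0 in the macrophage panel. TNFAIP3 is left blank in the fibroblast panel because the control pigs had no count of it, and other blanks are genes under the filter.

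Around these differences, the pathway genes called between endothelial- and smooth muscle-like nuclei were BCL2L1 at -2.64 (SE 0.39, adjusted p = 4.77e-07), IRAK2 at 2.36 (SE 0.43, adjusted p = 6.04e-05), TNFRSF11A, the receptor RANK, at 2.70 (SE 0.51, adjusted p = 0.000109) and PELI1 at 1.61 (SE 0.36, adjusted p = 0.00188). Also called were CXCL2 at -1.80 (SE 0.43, adjusted p = 0.00365) and the junction molecule PECAM1 at -1.23 (SE 0.35, adjusted p = 0.0251). Between macrophage- and smooth muscle-like nuclei they were TNFAIP6 at 4.42 (SE 1.19, adjusted p = 0.0141), the growth factor CSF1 at 3.31 (SE 0.88, adjusted p = 0.0121) and BCL2L1 at 2.50 (SE 0.61, adjusted p = 0.00471). The hyaluronan receptor CD44 was called at 1.85 (SE 0.54, adjusted p = 0.0283), EZR at -1.87 (SE 0.52, adjusted p = 0.0199) and BCL2A1, a survival gene of the BCL2 family, at -2.45 (SE 0.71, adjusted p = 0.028). The diet effect on BCL2L1 thus lay below that of smooth muscle-like nuclei in endothelial-like nuclei and above it in macrophage-like nuclei.

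Across 40 sums of 8 classes in 5 pigs, which share their libraries, the levels on a log2(CPM + 1) scale were set against 20043 other genes, and up to 3 of those with the highest Pearson correlation to each member are named here, leaving out 4 that have no symbol. Among those named, NFKBIZ was like SOCS3 (r = 0.81) and ETS2 (r = 0.80), where SOCS3 encodes a cytokine-induced signalling inhibitor. TNFAIP3 was like BAZ1A (r = 0.77) and CCNY (r = 0.76). NFKB1 was most like ASAP1 (r = 0.77), WTAP (r = 0.76) and REL (r = 0.76), REL being another NF-kB subunit. NFKBIA was closest to FRMD3 (r = 0.79), TMEM41B (r = 0.79) and F11R (r = 0.74), and BIRC3 to BAZ1A (r = 0.72) and STX11 (r = 0.71). VCAM1 was closest to PPA1 (r = 0.78), PALM2AKAP2 (r = 0.77) and MYO1E (r = 0.74). ICAM1 was closest to ACVR1B (r = 0.78) and ARHGAP28 (r = 0.74), SELP to CDA (r = 0.88) and MAPK11 (r = 0.83), and NFKB2 to PTMA (r = 0.63) and EEF1D (r = 0.61). These correlations describe the 40 sums and were not tested.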

How the data were processed

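Nuclei of 5 pigs were counted by the authors with Cell Ranger, version 5.0 per the labels' protocols and 7.1.0 per the file headers, on the pig build named Sscrofa11. The matrices as deposited hold whole-number UMI counts for each gene in each barcode, with no normalization, and every listed barcode had at least 500 UMIs. Each library was taken as 1 pig, since the labels describe separate reactions per sample.

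Barcodes under 300 genes or over 5% mitochondrial UMIs were dropped. Scrublet's automatic threshold marked 2 barcodes in all, so the top-scoring ones, 0.8% per 1000 barcodes, were removed as doublets. Nuclei were clustered in scanpy 1.11.5 (3000 variable genes without 116 member and pathway genes, 30 components, 20 neighbours, leidenalg 0.10.2 at resolution 1.0), and the endothelial class again alone (2000 variable genes, 20 components, 15 neighbours, resolution 0.5). A cluster was named where at least 3 fixed markers had 20 CPM and 2 times their 25th percentile over clusters, and these were 75% of the list or the list's mean position between that percentile and the maximum was at least 0.4. A subcluster needed at least 3 arterial or 3 venous or capillary markers at a position of 0.5, and more than 2 times those of the other kind. It stayed unnamed where its leading genes held more lymphatic markers than arterial and venous or capillary ones together. A whole cluster stayed unnamed where UMIs were low and no own marker was among its leading genes. The same held where the leading genes were those of another class or of kidney tubule. These naming thresholds were set after values were seen.

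Counts were summed per pig for classes of at least 20 nuclei per pig and tested with edgeR 4.0.16 (quasi-likelihood F-test, TMM, filterByExpr) in R 4.3.3, with Benjamini-Hochberg adjustment over all genes tested at 0.05. Differences between classes were interactions with the pig as a block. The tests were first run on simulated data. Alternatives were RLE factors, no count filter, DESeq2 1.42.0, limma-voom (limma 3.58.1), leaving out each pig, a replicate block, other clusterings and no doublet removal. The subclass outside arterial, the venous or capillary diet test, smooth muscle named by position alone and smooth muscle without the heat shock-led cluster were added after the data were seen. All members past the count filter were named in each comparison. Up to 6 called genes of the pathway lists were named by p, or the 2 of smallest p where fewer than 2 were called. For comparisons run only as alternatives, some members are named. The members and lists were chosen with earlier results of these data known. Some genes that the rule on likeness names are not reported here.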

Additional observations from a re-analysis of the deposited data

Results flagged for a closer look

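The diet effect of 3 members differed between classes by edgeR's quasi-likelihood test of the difference itself. Over all genes tested, 3.67% were called between endothelial- and smooth muscle-like nuclei and 3.26% between macrophage- and smooth muscle-like nuclei. The median difference of all genes was 0.43 in the macrophage comparison. The obese over control log2 effect on BIRC3 in endothelial-like nuclei exceeded that in smooth muscle-like nuclei by 1.80 (SE 0.38, adjusted p = 0.000696), with the effect at 2.83 in the first class and 0.79 in the second. It was 0.97 (adjusted p = 0.491) without control pig 1, and outside the arterial subclass the effect on BIRC3 was 0.69. In macrophage-like nuclei the effect lay below that in smooth muscle-like nuclei for NFKBIZ, by a difference of -2.92 (SE 0.53, adjusted p = 2.34e-05). It did so for BIRC3 at -1.82 (SE 0.51, adjusted p = 0.0188) and for NFKBIA at -2.04 (SE 0.63, adjusted p = 0.0445). The BIRC3 difference was not called without obese pig 1 (-1.73, adjusted p = 0.0604) or control pig 2 (-1.23, adjusted p = 0.501), and that of NFKBIA held only without obese pig 1 when single pigs were left out. All 3 obese pigs lay below both control pigs in macrophage-like nuclei for BIRC3 and NFKBIA and above them in smooth muscle-like nuclei, while NFKBIZ overlapped between groups in macrophage-like nuclei. Of all genes tested, 20.6% lay below control in every obese pig in macrophage-like nuclei, and 17.8% above in smooth muscle-like nuclei.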

How the results depend on the processing

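Of 1399 member values over all comparisons and alternatives, 1176 kept their direction and their side of the threshold, 28 lost a call, 61 gained one and 134 changed sign. The 9 values called (endothelial-like NFKBIZ, BIRC3 and VCAM1, arterial and fibroblast-like NFKBIZ, and the 4 differences between classes) kept their sign in every alternative run. Besides single pigs, VCAM1 in endothelial-like nuclei lost its call by limma-voom (adjusted p = 0.0701), without doublet removal (0.0747) and at a clustering resolution of 0.5 (0.0536), and its adjusted p ran from 6.63e-11 to 0.0994 over 13 alternatives. With 5 pigs, and 1 control pig left in some fits, which was then assumed to vary like the obese pigs, the depth limits rare members: NFKB2 and SELP passed the count filter in few classes. The cause of each change below was not tested. The upper values of TNFAIP3 in pericyte-like nuclei and of VCAM1 in the fibroblast–smooth muscle difference come from fits whose remaining control pig had no count of the gene, and are no usable folds. That of VCAM1 in venous or capillary nuclei at the finer resolution rests on 1 UMI in the remaining control pig.

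With no filter on low counts, the number of genes called was 559 (all nuclei), 824 (smooth muscle), 333 (fibroblast), 1110 (endothelial), 283 (arterial), 84 (outside arterial), 681 (macrophage), 72 (pericyte), 50 (Schwann cell), 62 (T or NK cell), 1 (the arterial–venous difference in diet effect) and 187 (the fibroblast–smooth muscle difference). The sign turned for NFKB1 at -0.059 (arterial), NFKB1 at 0.054 (outside arterial), NFKB1 at 0.078 (arterial minus venous), NFKB1 at -0.34 (the arterial–venous difference in diet effect). By the Wald test of DESeq2, the number of genes called was 790 (all nuclei), 526 (smooth muscle), 110 (fibroblast), 226 (arterial), 39 (outside arterial), 407 (macrophage), 14 (pericyte), 11 (Schwann cell), 22 (T or NK cell), 388 (the endothelial–smooth muscle difference), 27 (the fibroblast–smooth muscle difference) and 365 (the macrophage–smooth muscle difference). Opposite in sign were NFKBIA at 0.12 (the endothelial–smooth muscle difference), NFKB2 at -0.012 (the macrophage–smooth muscle difference). By limma-voom, the number of genes called was 8 (smooth muscle), 51 (macrophage), 5 (Schwann cell), 188 (the endothelial–smooth muscle difference) and 151 (the macrophage–smooth muscle difference). A change of sign was found for SELP at 1.62 (outside arterial), TNFAIP3 at -0.50 (macrophage), TNFAIP3 at 1.91, NFKB2 at -0.77, NFKB1 at -0.042 and NFKBIA at 0.32 (pericyte), NFKBIA at 0.043 (the endothelial–smooth muscle difference), NFKB2 at -0.070 (the macrophage–smooth muscle difference). With RLE size factors, the sign turned for NFKBIA at 0.13 (the endothelial–smooth muscle difference), NFKB2 at -0.039 (the macrophage–smooth muscle difference).

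Without doublet removal, the number of genes called was 39 (smooth muscle), 150 (arterial), 204 (macrophage), 2 (Schwann cell), 6 (the arterial–venous difference in diet effect) and 0 (the fibroblast–smooth muscle difference). Opposite in sign were ICAM1 at 0.30, BIRC3 at -0.14 and NFKB1 at 1.26 (outside arterial), NFKB1 at -0.031 (macrophage), NFKB2 at -0.10 and NFKB1 at -0.054 (pericyte), BIRC3 at 0.17 (Schwann cell), ICAM1 at -0.95 (arterial minus venous), SELP at 1.84 (the arterial–venous difference in diet effect), ICAM1 at 0.10 and VCAM1 at -0.0057 (the endothelial–smooth muscle difference), VCAM1 at 0.012 (the fibroblast–smooth muscle difference). At a clustering resolution of 0.5, the number of genes called was 27 (fibroblast), 150 (arterial) and 4 (the fibroblast–smooth muscle difference). A change of sign was found for ICAM1 at 0.24 and NFKB1 at 1.30 (outside arterial), NFKB1 at -0.33 and NFKBIA at 0.073 (pericyte), ICAM1 at -0.038 (arterial minus venous), NFKB1 at -0.12 and VCAM1 at -0.21 (the arterial–venous difference in diet effect), TNFAIP3 at 0.063, ICAM1 at 0.31 and NFKBIA at 0.083 (the endothelial–smooth muscle difference), VCAM1 at 0.48 (the fibroblast–smooth muscle difference). With the members kept among the clustering genes, the number of genes called was 9 (outside arterial), 2 (the arterial–venous difference in diet effect) and 4 (the fibroblast–smooth muscle difference). The sign turned for NFKB1 at 0.038 (outside arterial), NFKB2 at -0.16 and NFKB1 at -0.10 (pericyte), ICAM1 at -0.30 (arterial minus venous), SELP at 2.23 (the arterial–venous difference in diet effect), TNFAIP3 at 0.0052 (the endothelial–smooth muscle difference), NFKB1 at -0.095 (venous or capillary at the finer resolution). With endothelial subclusters at a resolution of 1.0, the number of genes called was 152 (arterial) and 5 (the arterial–venous difference in diet effect). Opposite in sign were BIRC3 at -0.069 and NFKB1 at 0.033 (outside arterial), ICAM1 at -1.46 (arterial minus venous), NFKB1 at -0.15 and SELP at 1.66 (the arterial–venous difference in diet effect). Set against all other endothelial nuclei, the number of genes called was 6 (the arterial–venous difference in diet effect). Opposite in sign were SELP at 1.49 (the arterial–venous difference in diet effect). With smooth muscle named by marker position alone, the number of genes called was 136 (smooth muscle). Without the heat shock-led cluster, the number of genes called was 43 (smooth muscle).

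Pigs of the groups share the numbers 1 and 2, and the labels do not say that a number pairs them. Deviations of same-numbered pigs from their group means correlated at -0.19 to 0.16 over 10 sets of nuclei. With 2 control pigs, the deviations of these mirror each other, so the correlations cannot decide whether a number pairs pigs. Fits with that number as a block are given for completeness. With the replicate block, the number of genes called was 362 (all nuclei), 83 (smooth muscle), 395 (fibroblast), 219 (arterial), 11 (macrophage) and 24 (Schwann cell). The sign turned for NFKB1 at -0.12 (endothelial), NFKB1 at -0.017 (arterial), TNFAIP3 at -0.065 and VCAM1 at -0.43 (outside arterial), TNFAIP3 at -0.38 and NFKB1 at -0.16 (macrophage), ICAM1 at -0.47, NFKB2 at -1.26, BIRC3 at -0.27, NFKB1 at -0.50 and VCAM1 at -1.22 (pericyte), BIRC3 at 0.16 and NFKB1 at -0.087 (Schwann cell). The block turned no member call off and turned 7 on.

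With each pig left out in turn, the following ranges of the number of genes called and of members' log2 values were found. All nuclei gave 0 to 351 genes called, NFKB2 -0.34 to 0.24, NFKB1 -0.12 to 0.19 and SELP -0.79 to 0.11. Smooth muscle gave 0 to 80 genes called and NFKB2 -0.28 to 0.055. Fibroblast gave 0 to 145 genes called and NFKB1 -0.28 to 0.10. Endothelial gave 145 to 523 genes called and NFKB1 -0.16 to 0.57. Arterial gave 13 to 120 genes called and NFKB1 -0.10 to 0.67. Outside arterial gave 0 to 5 genes called, BIRC3 -0.20 to 2.29, NFKB1 -0.45 to 0.14, VCAM1 -0.49 to 2.52 and SELP -2.11 to 3.20. Macrophage gave 0 to 187 genes called, TNFAIP3 -0.54 to 1.52, NFKBIZ -1.25 to 0.61, ICAM1 -1.29 to 0.86 and NFKB1 -0.18 to 0.68. Pericyte gave TNFAIP3 -3.19 to 7.79, ICAM1 -1.07 to 3.06, NFKB2 -0.87 to 1.15, BIRC3 -0.42 to 1.85, NFKB1 -0.55 to 0.72, VCAM1 -1.63 to 3.09 and NFKBIA -1.36 to 2.30. Schwann cell gave 0 to 2 genes called and BIRC3 -0.40 to 0.30. T or NK cell gave 0 to 1 genes called and NFKB1 -0.91 to 0.015. Arterial minus venous gave ICAM1 -0.39 to 1.37, NFKB1 -0.16 to 0.11 and VCAM1 -1.30 to 0.40. The arterial–venous difference in diet effect gave 0 to 13 genes called, NFKB1 -0.13 to 0.29 and VCAM1 -0.90 to 1.42. The endothelial–smooth muscle difference gave 219 to 588 genes called, TNFAIP3 -0.70 to 0.33, NFKBIZ -1.53 to 0.17, ICAM1 -0.56 to 0.13, VCAM1 -0.41 to 0.88 and NFKBIA -0.61 to 0.48. The fibroblast–smooth muscle difference gave 0 to 96 genes called and VCAM1 -1.19 to 5.82. The macrophage–smooth muscle difference gave 188 to 486 genes called, TNFAIP3 -1.15 to 0.62 and NFKB2 -0.36 to 0.68. Venous or capillary at the finer resolution gave 0 to 3 genes called, TNFAIP3 -0.14 to 2.23, NFKBIZ -0.043 to 1.14, ICAM1 -0.90 to 0.15, BIRC3 -1.07 to 2.57, NFKB1 -0.53 to 0.54, VCAM1 -0.075 to 5.65 and SELP -2.74 to 2.87.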

Other observations

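Cluster 10, left unnamed, held 418, 492 and 246 nuclei of obese pigs 1 to 3, against 557 and 85 of control pigs 1 and 2, with pericyte markers the best but insufficient match. NFKBIZ had 1726, 798 and 799 CPM there in the obese pigs and 76.7 and 186 CPM in the control pigs. VCAM1 had 101, 35.1 and 18.8 CPM in the obese pigs and 11.5 and 9.41 CPM in the control pigs, and ICAM1 148, 78.9 and 109 CPM and 18.1 and 15.1 CPM. These 3 genes were chosen after their values were seen and were not tested there, while NFKB1 overlapped, with 160.0, 137 and 138 CPM in the obese pigs and 148 and 162 CPM in the control pigs. In the 14, 35 and 5 lymphatic endothelial-like nuclei of the obese pigs NFKBIZ had 935, 1099 and 721 CPM, against 504 and 470.0 CPM in the 9 and 4 of the control pigs.

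Among 11 genes of endothelial nitric oxide and flow responses, 9 were tested in endothelial-like nuclei, 1 was called higher in the obese pigs and 1 lower. Of all genes tested there, 5.99% were called higher and 2.46% lower. VWF, which encodes von Willebrand factor, had 317, 544 and 637 CPM in the obese pigs and 35.2 and 32.4 CPM in the control pigs. NOS3, the endothelial nitric oxide synthase, had 448, 161 and 283 CPM in the obese pigs and 683 and 755 CPM in the control pigs. Neither overlapped between the groups, where 19.4% of all genes tested lay above and 25.1% below control in every obese pig. The arterial subclass made up 27.6, 17.8 and 23.0% of these nuclei in obese pigs 1 to 3, against 58.5 and 72.8% in control pigs 1 and 2. Within it 0 of 7 listed genes tested were called higher and 1 lower, beside 1.73% and 0.377% of all genes. Outside it 0 of 8 were called, beside 0.0% of all genes. The part of this makeup in the VWF and NOS3 values was not tested.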
